A study of Solanum lycopersicum with 18 samples.

Results

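In the tomato root, 80 of 29922 genes were described whose dgt effect in the meristem ran against their dgt effect in the zones behind it. They were chosen by their own values, so those values are described, with no p-value for the differences that chose them. For each zone, the mean TPM (a level scaled for transcript length and library total) of the 3 dgt libraries and of the 3 WT libraries was taken, 1 was added to each, and the log2 ratio of dgt over WT was formed. The ratios of the elongation and differentiation zones were averaged. Genes for which the meristem ratio and this average had opposite signs were ranked by the smaller of both sizes, here called the score, and the first 80 were kept, with cuAO left out by the rule. In 57 of them the dgt mean was higher in the meristem and the average outer ratio was below 0 (the raised set). In 23 the dgt mean was lower in the meristem and the average outer ratio was above 0 (the lowered set). These names describe means, and no dgt against WT difference of these genes in any zone is given a p-value, because that difference chose them.

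DGT is a cyclophilin, a peptidyl-prolyl isomerase of the cyclophilin A type, and tomato plants that lack its function respond poorly to auxin and form no lateral roots. In the root tip, cells divide in the meristem, lengthen in the elongation zone and take on their final form in the differentiation zone, so that position along the root stands for developmental age. A gene with opposite effects along this axis is one whose profile between zones is flatter, steeper or displaced in the mutant.

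RNA was sequenced from roots of 7-day-old seedlings of the cultivar Ailsa Craig, either WT or mutant with the dgt1-1 allele, with 3 biological replicates for meristem, elongation zone and differentiation zone, 18 libraries in all. Each replicate pooled about 50 to 100 dissected root portions, so single plants were not followed. Library totals lay between 17919441 and 29133603 expected counts. Genes of dividing cells, 15 of them chosen by symbol, summed to 2450 to 2975 TPM in the WT meristem and 2517 to 2817 in the dgt meristem and reached at most 861 in any library of the other zones. H2B-1, H2B-2 and H2B-3 weighed most, with WT meristem means of 319.8, 660.4 and 584.5 TPM and dgt means of 273.1, 796.9 and 614.5. Single genes went both ways in the meristem, with 6 of the 15 above 0 by the log2 ratio and 9 below. The ratio was -0.85 for cdkB2 and 1.43 for cycd3c2. The WT meristem replicates differed more among themselves than the dgt ones: over all genes with a mean TPM of 1 or more, the highest replicate exceeded the lowest by a median of 1.54 times in the WT meristem and 1.20 times in the dgt meristem. No gene of the files carries the name DGT. The cyclophilin gene named CyP lay between 3962 and 6321 TPM in the WT meristem and between 4172 and 4340 in the dgt meristem, and its genotypes overlapped in the other zones too. Whether CyP is the mutated gene was not established. In tissue pieces, fewer cells of a type and less RNA per cell cannot be told apart. Zones were cut at visible borders, and the paper cites earlier histology with a shorter meristem and elongation zone of fewer cells in dgt. Whether the pieces match in cell content between genotypes was not tested.

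Opposite signs by themselves were common. They occurred in 9689 of all genes (32.4%), with a median score of 0.0986, and 241 of those genes had a score of 0.5 or more. The score of the 80 genes ran from 0.731 to 2.12 and that of only 25 was 1 or more. The last genes inside were LOC101247215 at 0.736, LOC101251392 at 0.734 and LOC101254836 at 0.731. The first outside were LOC101251579 at 0.730, LOC101263965 at 0.723 and LOC101265977 at 0.722, so no gap separated members from the rest. In 52 of the 57 raised genes and 21 of the 23 lowered genes, the elongation zone and the differentiation zone each had the sign opposite to the meristem.

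**Figure D1:**
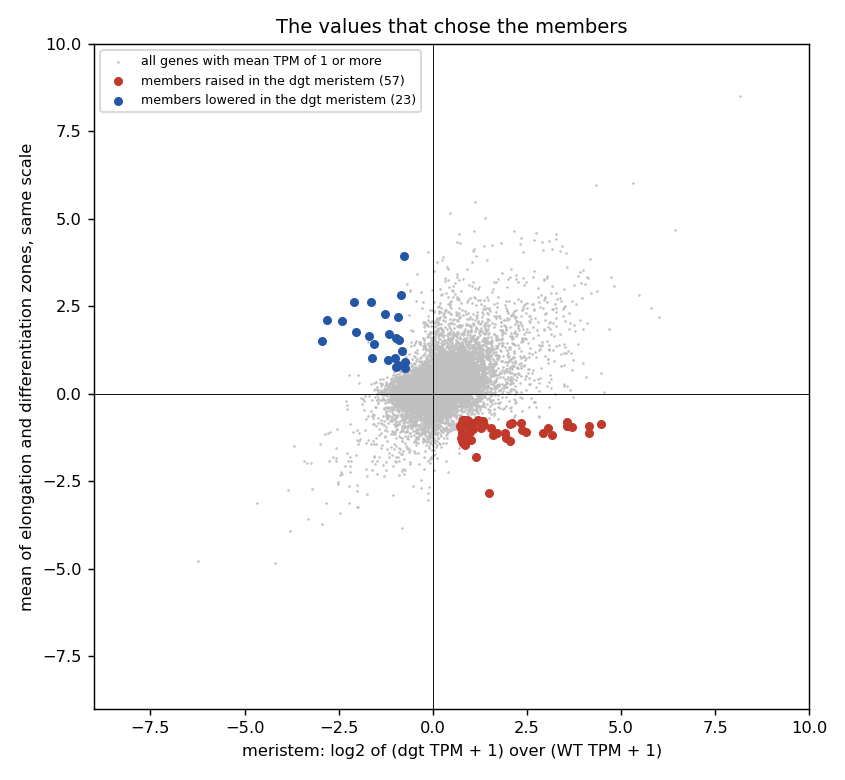
The values that chose the genes. Each point is a gene, the horizontal axis gives the log2 ratio of (dgt TPM + 1) over (WT TPM + 1) in the meristem and the vertical axis the mean of the same ratio in the elongation and differentiation zones. Genes with a mean TPM of 1 or more are grey, the 57 raised genes are red and the 23 lowered genes blue. The raised genes spread to 4.47 along the meristem axis while most stay near -1 on the other.

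**Figure D2:**
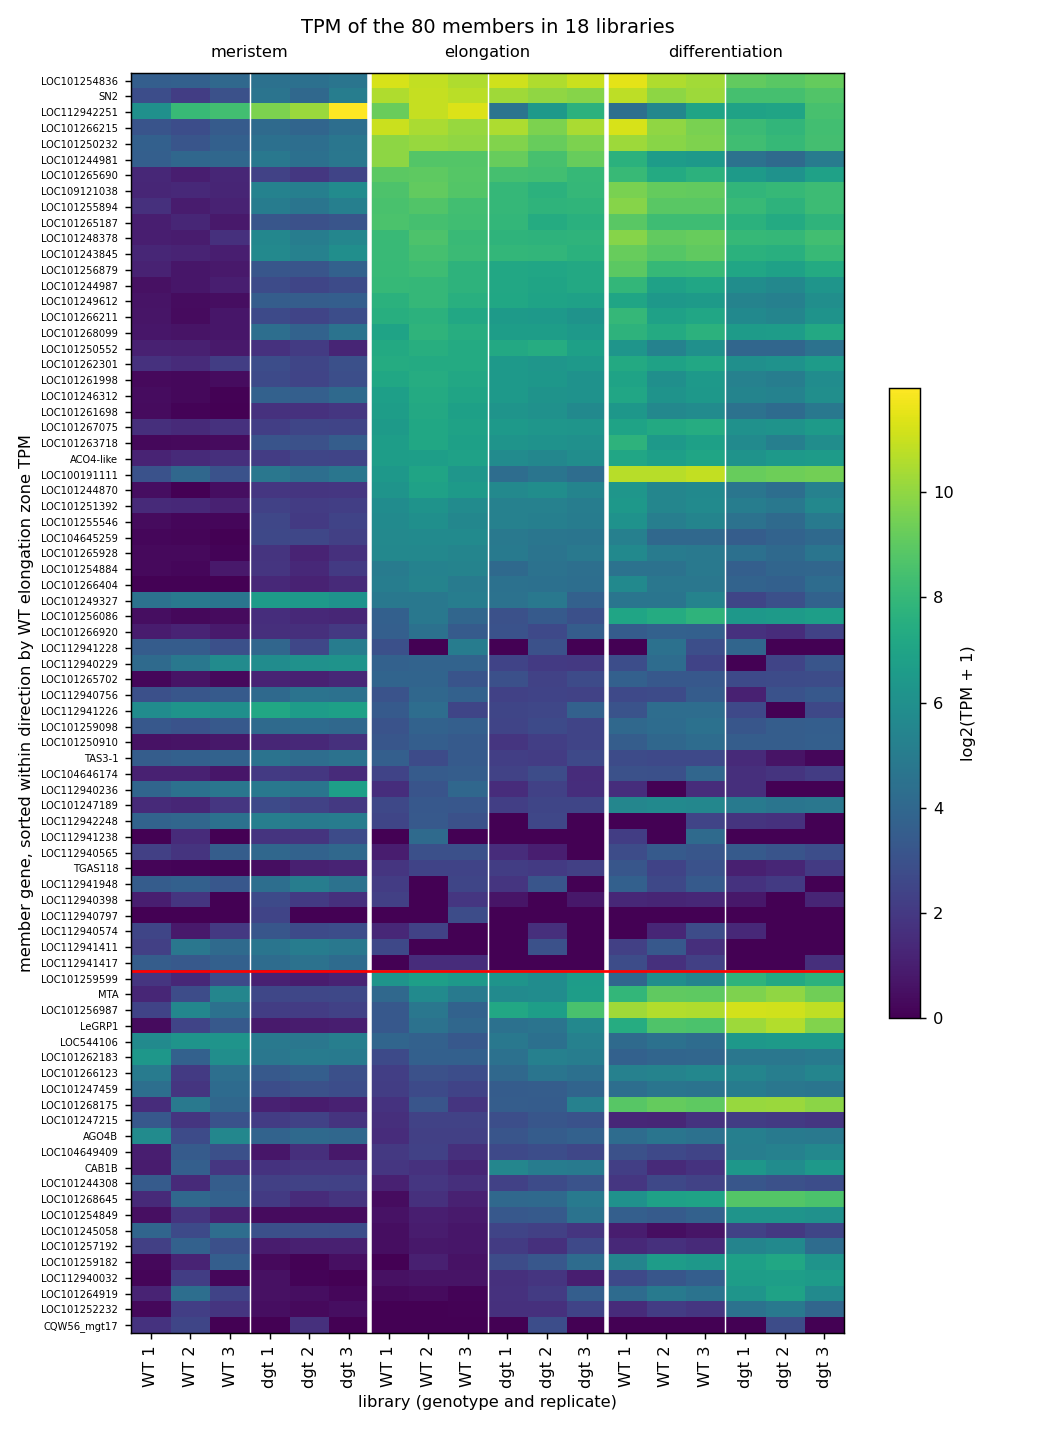
The log2(TPM + 1) level of each of the 80 genes (rows) in each of the 18 libraries (columns, WT and dgt replicates 1 to 3 within each zone). Raised genes are above the red line and lowered genes below it, each set sorted by the mean WT elongation zone level. Most raised genes with a high level outside the meristem are dark in the WT meristem and less dark in the dgt meristem.

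In WT, the meristem mean was the lowest of the 3 zones in 44 of the 57 raised genes. Of the 57 genes, 33 were protein-coding with a mean of 20 TPM or more in the WT elongation zone. This group was formed after the values were seen and is described without a test. Its threshold favours genes with a high level outside the meristem. In the other 24 raised genes the WT meristem was the lowest WT zone in 11 and the highest in 9. The values that follow are those of the 33 genes. Their WT meristem mean was the lowest of the 3 WT zones in 33 of 33 genes and under 2 TPM in 24. The median of their means was 1.07 TPM in the WT meristem and 7.64 in the dgt meristem. It was 166 TPM in the WT elongation zone against 84.6 in dgt, and 139 TPM in the WT differentiation zone against 59.9 in dgt. The smaller difference along the root in dgt follows from how these genes were chosen and is not a result. The dgt meristem was still the lowest dgt zone in 30 of the 33 genes, and below both outer WT zones in 32.

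Set against each gene's own WT elongation zone mean, the median level of the 33 genes was 0.366% in the WT meristem (from 0.0959% to 85.3% over the genes) and 3.91% in the dgt meristem (from 0.780% to 284%). By library, the median was 0.472%, 0.330% and 0.384% in WT meristem replicates 1 to 3 and 4.30%, 3.54% and 4.61% in the dgt replicates. The dgt level was 58.5% of WT in the elongation zone (median, from 21.2% to 98.4%) and 42.2% in the differentiation zone (from 18.1% to 66.6%). WT and dgt libraries did not overlap in the meristem for 33 of the 33 genes, in the elongation zone for 28 and in the differentiation zone for 31. Among all genes tested zone by zone, in the order meristem, elongation and differentiation, 41.5%, 49.9% and 43.5% had libraries that did not overlap. Since these values chose the genes, nothing is read from the comparison. The 33 genes shared a highest replicate in some groups more than in others. In the differentiation zone, dgt replicate 3 was highest in 33 of 33, against 28.1% of all genes with a mean TPM of 1 or more. WT replicate 1 was highest there in 29, against 19.7%. In the elongation zone, WT replicate 2 was highest in 23, against 51.1%, and dgt replicate 1 in 23, against 17.9%. In the WT meristem, replicates 1 to 3 were highest in 14, 4 and 14, and dgt meristem replicate 3 was highest in 20, against 42.5%.

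**Figure D3:**
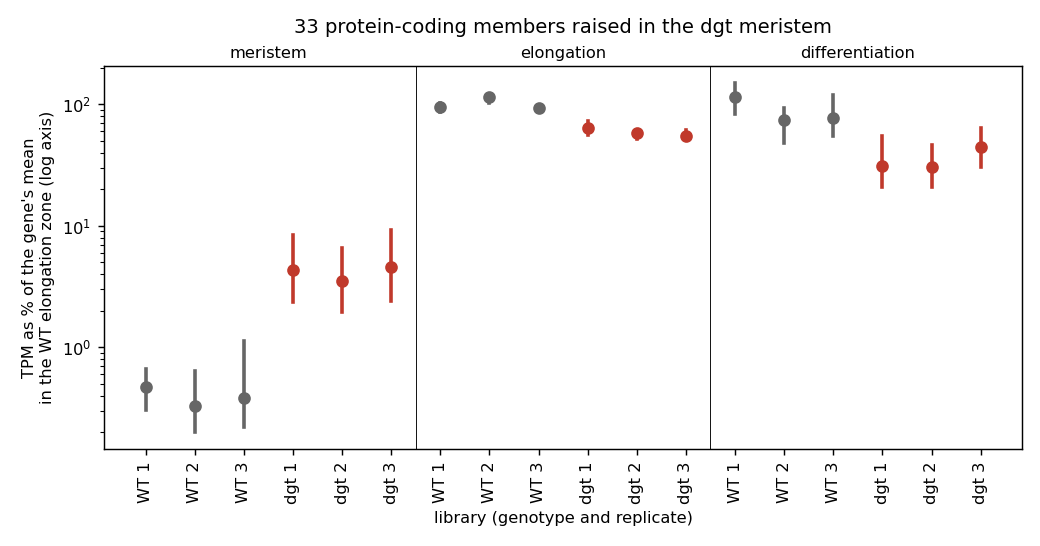
TPM of the 33 protein-coding raised genes as a percentage of each gene's mean in the WT elongation zone (log axis), in each of the 18 libraries. Points are medians over the genes, bars run from the lower to the upper quartile, grey is WT and red is dgt. The 3 dgt meristem medians, 3.54% to 4.61%, lie above the WT meristem medians and below all libraries of the other zones.

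Marker lists of other cells are given beside these genes. The 27 genes of expansins, xyloglucan endotransglucosylase/hydrolases and cellulases, taken by symbol as markers of elongating cells and walls, summed to 715 to 814 TPM in the WT meristem and to 806 to 935 in the dgt meristem, and the ranges overlapped. They overlapped in the elongation zone too, at 2147 to 2152 TPM in WT and 2038 to 2389 in dgt, and were apart in the differentiation zone, at 1270 to 1522 in WT and 1034 to 1124 in dgt. By the log2 ratio of single genes, 12 of the 27 were above 0 and 14 below in the meristem. A list of 7 genes of differentiated root, in which the aquaporins PIP1-5 and TIP weighed most, summed to 476 to 592 TPM in the WT meristem and 708 to 801 in the dgt meristem. In the elongation zone it summed to 7854 to 9662 TPM in WT and 6771 to 6877 in dgt, and in the differentiation zone to 13437 to 18977 and 11309 to 14738. Its members went both ways, with 5 of 7 above 0 and 2 below in each zone. PIP1-5 carried the meristem sum, with a mean of 482 TPM in WT and 725 in dgt, whereas TIP was at 31.6 in WT and 13.3 in dgt. AMT1-2, an ammonium transporter, was higher in dgt by a log2 ratio of 1.41 in the meristem, 0.98 in the elongation zone and 1.44 in the differentiation zone. Neither list holds any of the 80 genes. The part of these cells in the raised set was not tested.

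The largest meristem ratios belonged to a few unnamed protein-coding genes, picked out here after their values were seen. LOC101243845 measured 1.46, 1.31 and 1.02 TPM in the 3 WT meristem libraries and 49.2, 37.5 and 60.6 in the dgt ones, a log2 ratio of 4.47. In the elongation zone it measured 280.1, 354 and 289 TPM in WT and 244, 235 and 203 in dgt, and in the differentiation zone 592, 448 and 525 in WT and 201, 186 and 266 in dgt. The genotypes did not overlap in any zone, and in dgt the meristem remained under either outer zone. LOC101248378 measured 1.02, 0.9 and 2.19 TPM in the WT meristem and 46.3, 33.00 and 44.9 in dgt. LOC101255894 measured 2.2, 0.86 and 1.2 in WT and 31.3, 24.6 and 35.1 in dgt, and LOC101246312 0.33, 0.19 and 0.06 and then 12.1, 11.4 and 15.96. Each of these had fewer than 50 expected counts in every WT meristem library, so the ratio rests on low counts at its base, whereas the highest of the 3 dgt libraries exceeded the lowest by a median of 1.39 times over the 33 genes, against 1.20 times over all genes, and by at most 2.31 times.

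By score, LOC101266211 led the protein-coding raised genes, with 1.34. It gave 0.62, 0.28 and 0.68 TPM in the WT meristem and 5.43, 4.51 and 6.08 in dgt. Outside, it gave 180.0, 208 and 143 TPM in WT and 93.00, 87.9 and 71.5 in dgt elongation zone, then 256, 116 and 138 in WT and 50.9, 42.7 and 69.7 in dgt in the differentiation zone. Every dgt library outside the meristem was below every WT library of its zone. SN2, which encodes snakin-2, a small cysteine-rich antimicrobial peptide, was the most abundant raised gene with a symbol. Its meristem level was 6.06, 3.53 and 6.9 TPM in WT and 23.4, 15.3 and 32.7 in dgt. SN2 in the elongation zone had 1504, 1962 and 1736 TPM in WT and 1249, 1031 and 906 in dgt, and in the differentiation zone 1768, 988 and 1196 in WT and 349, 351 and 431 in dgt. The SN2 ratio was 1.93 in the meristem, -0.71 in the elongation zone and -1.803 in the differentiation zone on the log2 scale.

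LOC109121038 held 1.42, 1.59 and 1.37 TPM in the WT meristem against 38.8, 35.4 and 53.5 in dgt. Its elongation zone libraries read 402, 543 and 438 TPM in WT and 252, 210.1 and 248 in dgt, its differentiation zone libraries 769.7, 562 and 546 in WT and 233, 257 and 296 in dgt. The genotypes of this gene did not overlap in any zone. LOC101263718 read 0.21, 0.23 and 0.26 TPM in the WT meristem and 7.7, 6.9 and 10.7 in dgt, followed by 99.9, 140.2 and 109.9 in WT and 73.6, 68.4 and 64.8 in dgt in the elongation zone and 216, 87.9 and 112 in WT and 52.1, 35.4 and 57.5 in dgt in the differentiation zone. For LOC101244987 the meristem values were 0.44, 0.63 and 1.02 TPM in WT and 5.77, 4.68 and 5.75 in dgt, the elongation zone values 259, 256 and 216 in WT and 146, 126 and 148 in dgt, and the differentiation zone values 241, 115 and 134 in WT and 58.3, 46.8 and 74.6 in dgt. Neither gene overlapped between genotypes in any zone. LOC101256879 had 1.24, 0.65 and 0.76 TPM in the WT meristem and 8.39, 7.85 and 12.1 in the dgt meristem, with 272, 304 and 211 in WT against 145, 135 and 149.7 in dgt in the elongation zone and 499, 259 and 271 in WT against 137, 116 and 158 in dgt in the differentiation zone. LOC101256879 also lies beside another raised gene, LOC101265928, in the gene order of chromosome 5.

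LOC101261698 and LOC101261998 are direct neighbours on chromosome 12. LOC101261698 was at 0.29, 0.1 and 0 TPM in the WT meristem and 2.26, 2.22 and 2.74 in dgt, at 101, 151 and 112 in WT and 73.02, 64.9 and 51.3 in dgt in the elongation zone, and at 79.5, 47.5 and 53.5 in WT and 21.96, 17.4 and 27.00 in dgt in the differentiation zone. LOC101261998 was at 0.22, 0.2 and 0.32 TPM in WT and 5.39, 4.44 and 6.47 in dgt in the meristem, 139, 173 and 143 in WT and 85.9, 79.1 and 68.03 in dgt in the elongation zone, and 123, 62.3 and 87.3 in WT and 37.9, 32.8 and 55.4 in dgt in the differentiation zone. Both genes kept the genotypes apart in every zone.

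Some raised genes departed from this profile. LOC100191111 was a gene of the differentiation zone, with 1678, 1689.7 and 1874 TPM in WT and 596, 644 and 687 in dgt. Its elongation zone had 81.7, 128 and 78.4 TPM in WT and 18.3, 24.5 and 18.3 in dgt, the latter overlapping the dgt meristem (25.6, 19.2 and 25.4) and above the WT meristem (7.2, 15.3 and 7.21). LOC101249327 was the exception among the 33 genes in which the dgt meristem exceeded the outer WT zones, with 22.1, 28.1 and 24.2 TPM in the WT meristem and 93.3, 85.5 and 69.05 in dgt. Its elongation zone values, 27.02, 27.2 and 32.98 in WT and 22.04, 27.1 and 12.2 in dgt, overlapped, and its differentiation zone values were 24.2, 24.6 and 40.1 in WT and 4.66, 6.67 and 12.8 in dgt.

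ACO4-like, an ACC oxidase that carries out the last step of ethylene synthesis, was low in both meristems, at 1.29, 1.7 and 2.09 TPM in WT and 3.39, 4.61 and 4.41 in dgt. In the elongation zone it had 100.5, 104 and 117 TPM in WT and 54.9, 46.4 and 57.6 in dgt, and in the differentiation zone 135, 107 and 132 in WT and 70.4, 84.7 and 93.8 in dgt. The genotypes were apart in all zones, by log2 ratios of 0.93, -1.001 and -0.58. TGAS118, a defensin-like gene, was near the detection limit, at 0.13, 0.09 and 0 TPM in the WT meristem and 0.36, 1.07 and 1.31 in dgt, and never exceeded 49.05 expected counts in a library. Its elongation zone values overlapped, 2.6, 4.25 and 4.39 in WT and 3.46, 3.13 and 3.88 in dgt, and its differentiation zone values were 8.14, 4.4 and 7.23 in WT and 1.05, 1.44 and 3.11 in dgt.

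**Figure D4:**
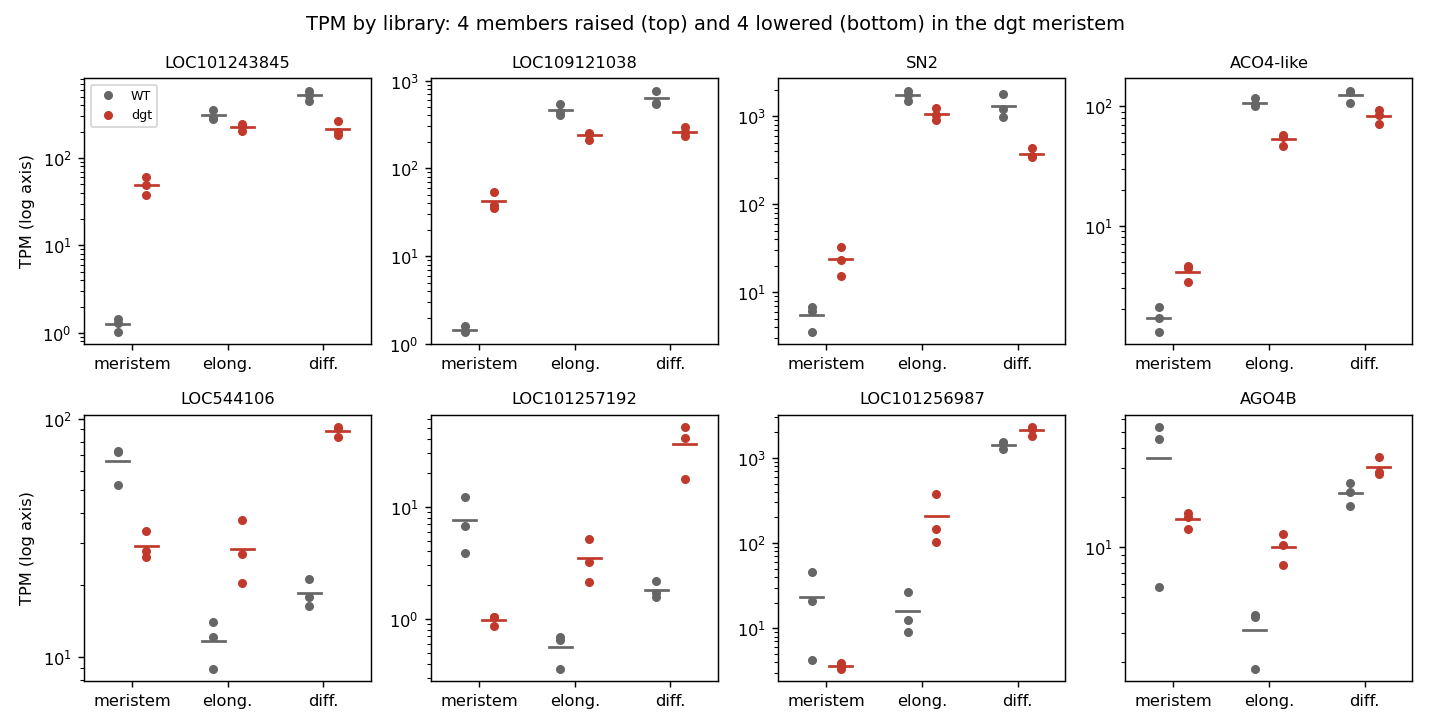
TPM (log axis) of 4 raised genes (top) and 4 lowered genes (bottom) in each library of the 3 zones. Points are replicates, horizontal lines are means of 3, grey is WT and red is dgt. In the raised genes the dgt points lie above the WT points in the meristem and below them in the other zones, and in LOC101256987 and AGO4B the WT meristem points are spread widely.

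The raised set also held 17 RNAs that are not protein-coding: 13 small nucleolar RNAs (snoRNAs), 2 long noncoding RNAs, 1 small nuclear RNA and 1 ribosomal RNA. snoRNAs guide the chemical modification of ribosomal and spliceosomal RNA. They made up 16.25% of the 80 genes against 1.10% of all genes with a mean TPM of 1 or more. They were short, 61 to 125 bases with a median of 87, and sparsely counted: the highest expected count in any library had a median of 21 over the 13 snoRNAs, was under 50 in 9 of them, and 12 had a count of 0 in at least 1 library. A single read weighs more TPM in a short gene. The library kit selects polyadenylated RNA, which most snoRNAs are not, and it does not mark strand. The genotypes did not overlap for 9 of the 13 in the meristem, 2 in the elongation zone and 4 in the differentiation zone, beside 41.5%, 49.9% and 43.5% of all genes tested.

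Only LOC112942251 among the snoRNAs was well counted, with up to 3311 expected counts. It measured 62.95, 270.4 and 329 TPM in the WT meristem and 789.8, 1166 and 4062 in dgt. The elongation zone had 616, 1936 and 2605 TPM in WT and 23.3, 88.4 and 209 in dgt, and the differentiation zone 20.01, 45.3 and 126 in WT and 120.2, 126 and 363 in dgt. It was thus higher in dgt in the meristem, lower in the elongation zone and overlapping in the differentiation zone, and replicate 1 was the lowest of its group in all 6 groups. By contrast LOC112941238, which had the highest score of the raised set at 1.504, never exceeded 5 expected counts and was at 0 in 11 libraries. Its TPM was 0, 1.81 and 0 in the WT meristem, 2.52, 2.51 and 5.61 in dgt, 0, 16.7 and 0 in the WT elongation zone and 3.52, 0 and 16.6 in the WT differentiation zone, with 0 in every outer dgt library. Such a gene cannot be told from counting error at this depth, and LOC112940797, with a single count as its highest, was at 0 in 16 libraries.

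TAS3-1 is the precursor of trans-acting small interfering RNAs that, in Arabidopsis, restrain auxin response factors. It gave 10.7, 11.6 and 12.6 TPM in the WT meristem and 22.96, 18.4 and 21.9 in dgt. Its level was 11.4, 5.71 and 9.65 TPM in the WT elongation zone and 3.62, 3.4 and 5.35 in dgt, and 5.64, 5.32 and 5.29 in the WT differentiation zone and 1.71, 0.57 and 0.15 in dgt. The genotypes did not overlap in any zone, and TAS3-1 fell from the elongation to the differentiation zone in both genotypes. By edgeR's quasi-likelihood test within WT, its differentiation zone was lower than its elongation zone by a log2 fold change of -1.13 (SE 0.33, Benjamini-Hochberg adjusted p = 0.014), and within dgt by -2.53 (SE 0.52, adjusted p = 0.0014). A call needed an adjusted p under 0.05 and a fold over 2. The WT call was lost without WT differentiation zone replicate 2 (-1.10, edgeR adjusted p = 0.0505). Without WT elongation zone replicate 1 it was lost because the fold fell under 2 (-0.81, edgeR adjusted p = 0.046). By limma it was lost too (-0.58, adjusted p = 0.056).

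The lowered set was less uniform, and its WT meristem replicates disagreed. For 22 genes without a 0 among them, the highest WT meristem TPM exceeded the lowest by a median of 9.46 times, and by over 5 times in 17, against 1.54 times over all genes with a mean TPM of 1 or more. The dgt meristem replicates of the same set differed by a median of 1.25 times, near the 1.20 of all genes. WT and dgt meristem libraries overlapped in 16 of the 23 genes, and did not in 7. Outside the meristem they did not overlap in 19 genes in the elongation zone and 20 in the differentiation zone. Over all genes tested, the libraries did not overlap in 41.5% in the meristem, 49.9% in the elongation zone and 43.5% in the differentiation zone. The dgt meristem was the lowest dgt zone in 18 of the 23, and the WT meristem was the highest WT zone in 10.

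WT meristem replicate 1 was the lowest of its group in 14 of the 23 genes and replicate 2 in 8. Over all genes with a mean TPM of 1 or more, replicate 1 was the lowest in 21.4%, replicate 2 in 60.4% and replicate 3 in 16.0%. This grouping itself makes the other replicates of a gene the higher ones, and they were not always alike. LOC112940032 read 0.11, 3.47 and 0.14 TPM in WT meristem replicates 1 to 3, so that only replicate 2 was high. Replicate 2 was also the deepest library, with 29133603 expected counts. The genes that replicate 2 had lowest were AGO4B, LOC101259599, LOC101262183, LOC101266123, LOC101247459, LOC101244308, LOC101247215 and LOC101245058. Without replicate 1 of the WT meristem, 18 of the 23 lowered genes were still among the first 80. Without replicate 2, 17 were, and 21 still had opposite signs. Without replicate 3 it was 16, with 22 of opposite sign.

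LOC544106 and LOC101257192 had their highest WT mean in the meristem. LOC544106 measured 52.6, 73.4 and 72.3 TPM in the WT meristem and 27.7, 26.3 and 33.6 in dgt. It had 14.01, 12.2 and 8.91 TPM in the WT elongation zone and 26.9, 20.5 and 37.7 in dgt, and 16.4, 21.2 and 17.9 in the WT differentiation zone and 83.7, 91.3 and 91.99 in dgt. WT thus held most of this transcript in the meristem and dgt in the differentiation zone, with no overlap of genotypes in any zone. LOC101257192 had 3.86, 12.1 and 6.71 TPM in the WT meristem and 0.87, 1.05 and 1.05 in dgt, 0.36, 0.69 and 0.65 in WT and 3.24, 2.12 and 5.17 in dgt in the elongation zone, and 1.58, 2.18 and 1.69 in WT and 40.9, 51.2 and 17.6 in dgt in the differentiation zone. It too was highest in the meristem in WT and in the differentiation zone in dgt.

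The gene with the highest score of all, LOC101264919 (2.12), and its direct neighbour on chromosome 4, LOC101268175, were both lowest in replicate 1 of the WT meristem. LOC101264919 read 1.27, 19.2 and 4.39 TPM in the WT meristem and 0.43, 0.37 and 0.16 in dgt, 0.2, 0.29 and 0.1 in WT and 2.25, 3.21 and 11.1 in dgt in the elongation zone, and 17.5, 28.3 and 23.1 in WT and 76.3, 117 and 51.8 in dgt in the differentiation zone. LOC101268175 read 1.9, 27.7 and 15.02 TPM in WT and 1.12, 0.88 and 1.16 in dgt in the meristem, 2.41, 7.95 and 2.55 in WT and 10.6, 10.3 and 37.9 in dgt in the elongation zone, and 473, 569 and 512 in WT and 1124, 1176 and 951 in dgt in the differentiation zone. In both, the genotypes were apart in every zone, and WT meristem replicate 1 was the library nearest to dgt.

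LOC101256987 was the most abundant gene of the set in the differentiation zone, with 1258, 1558 and 1489 TPM in WT and 2293, 2199 and 1821 in dgt. Its elongation zone had 9, 26.4 and 12.5 TPM in WT and 146, 103 and 373 in dgt, its meristem 4.24, 45.2 and 21.1 in WT and 3.57, 3.34 and 3.95 in dgt. MTA and LeGRP1 were likewise highest in the differentiation zone in both genotypes, but otherwise differed from it. The WT meristem mean of LOC101256987, 23.5 TPM, was above its WT elongation zone mean of 16.0. In MTA it was below, at 17.2 against 32.8, and so it was in LeGRP1, at 4.66 against 15.3. MTA, a metallothionein, which binds metal ions, had 1.48, 5.95 and 44.3 TPM in the WT meristem and 4.9, 4.89 and 5.05 in dgt, 15.3, 52.9 and 30.03 in WT and 51.9, 56.05 and 101 in dgt in the elongation zone, and 246, 527 and 509.8 in WT and 821, 1013 and 672 in dgt in the differentiation zone. LeGRP1, a glycine-rich protein, had 0.27, 4.42 and 9.29 TPM in WT and 0.84, 0.91 and 1.02 in dgt in the meristem, 8.71, 22.1 and 15.01 in WT and 21.04, 23.1 and 47.3 in dgt in the elongation zone, and 169.6, 417 and 385 in WT and 1218, 1553 and 853 in dgt in the differentiation zone. In MTA and LeGRP1 the meristem and elongation zone libraries overlapped between genotypes, so that only the differentiation zone set the genotypes apart. In LOC101256987 the genotypes did not overlap in any zone.

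LOC101259182 measured 0.2, 1.32 and 10.8 TPM in the WT meristem and 0.25, 0.06 and 0.41 in the dgt meristem, 0, 1.05 and 0.49 in WT and 5.83, 8.62 and 18.1 in dgt in the elongation zone, and 41.1, 96.3 and 82.98 in WT and 113, 141 and 71.9 in dgt in the differentiation zone. LOC101268645 measured 1.72, 15.7 and 12.1 TPM in the WT meristem and 3.16, 1.78 and 2.47 in the dgt meristem, 0.32, 2.21 and 1.14 in WT and 15.8, 15.9 and 28.5 in dgt in the elongation zone, and 66.6, 117 and 125 in WT and 438, 439 and 391 in dgt in the differentiation zone. In both, WT meristem replicate 1 was below at least 1 of the dgt libraries. LOC101252232, listed as CYP71BE8, a cytochrome P450, which oxidises small molecules, was at 0.2, 3.65 and 2.6 TPM in the WT meristem and 0.38, 0.22 and 0.35 in dgt. Its elongation zone was listed at 0, 0 and 0.05 in WT and at 2.17, 2.12 and 4.36 in dgt, and its differentiation zone at 1.76, 3.43 and 2.69 in WT and 22.1, 27.9 and 14.6 in dgt. Its WT elongation libraries held 1 count between them, so no fold is given there.

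AGO4B encodes an Argonaute protein of the group that, in Arabidopsis, carries small RNAs in RNA-directed DNA methylation. In the meristem it measured 53.3, 5.76 and 45.1 TPM in WT and 12.9, 16.1 and 15.1 in dgt, so that WT replicate 2 lay below the dgt libraries and replicates 1 and 3 above them. It measured 1.83, 3.89 and 3.75 TPM in the WT elongation zone and 7.84, 10.3 and 12.1 in dgt, and 17.7, 24.4 and 21.4 in the WT differentiation zone and 35.4, 28.6 and 27.6 in dgt. The outer zones did not overlap. Its leading transcript took between 55.5% and 58.4% of its level in all 6 groups.

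CAB1B, a chlorophyll a/b-binding protein of the light-harvesting antenna, had 0.86, 11.4 and 2.74 TPM in the WT meristem and 2.43, 2.58 and 2.64 in dgt. Its elongation zone levels were 2.69, 2.3 and 1.4 TPM in WT and 43.8, 31.4 and 28.7 in dgt, and its differentiation zone levels 3.63, 1.72 and 2.37 in WT and 80.5, 55.3 and 86.5 in dgt. The meristem libraries overlapped and only WT replicate 2 was high, whereas the outer zones were far apart. A list of 22 photosynthesis genes that includes CAB1B moved with it outside the meristem. It summed to 30.7 to 51.9 TPM in the WT elongation zone and 235 to 317 in dgt. In the differentiation zone it summed to 176 to 195 TPM in WT and 711 to 910 in dgt. In the meristem it summed to 29.4 to 114 TPM in WT and 95.9 to 106 in dgt. By the log2 ratio, 18 of the 22 were above 1 in the elongation zone, 20 in the differentiation zone and 4 in the meristem, where 8 were below 0. The part of that list in the lowered set was not tested.

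The sums of the stress lists did not overlap between genotypes in any zone. The 8 genes that the water stress pattern picked by spelling, of which LeAMT1;1 and LeANT bear other names, summed to 436 to 459 TPM in the WT meristem and 1327 to 1479 in dgt, 600 to 710 and 2043 to 2609 in the elongation zone, and 1149 to 1200 and 3332 to 3732 in the differentiation zone. The 11 wound and defence genes summed to 480 to 704 TPM in the WT meristem and 235 to 274 in dgt, 949 to 1297 and 275 to 328 in the elongation zone, and 1900 to 1968 and 1159 to 1295 in the differentiation zone. The wound and defence sum was carried by PR-1a1, a pathogenesis-related protein, with means of 469 TPM in WT and 139 in dgt in the meristem. Its means were 1006 TPM in WT and 140.0 in dgt in the elongation zone, then 1205 and 164 in the differentiation zone. Most of its other genes went the other way: 7 of the 11 were above 0 by the log2 ratio in the meristem, 8 in the elongation zone and 7 in the differentiation zone, where LOX1.1, a lipoxygenase, was at 525 in WT and 860.4 in dgt. The part of both lists in the results was not tested.

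CQW56_mgt17, which the gene table did not match, reached at most 3 expected counts and was at 0 in 13 libraries, so that its place in the lowered set is within counting error. The lowered genes not described singly had scores of at most 0.92. Beside the 33 genes, the raised set held 7 protein-coding genes with less than 20 TPM in the WT elongation zone, among them TGAS118 and LOC101250910.

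Calls by edgeR's quasi-likelihood test on counts (adjusted p under 0.05 and a fold over 2) are given for the record and read no further, since the rule used the same contrast. In the meristem, 31 of 51 raised genes that could be tested were called higher in dgt, against 10.1% of all genes tested, and 8 of 20 lowered genes were called lower, against 2.72%. The latter count turned on single libraries: it was 18 of 20 without WT meristem replicate 2, 13 of 21 without WT meristem replicate 1, 5 of 20 without WT meristem replicate 3 and 2 of 21 without any one dgt meristem library. It was 12 of 20 by DESeq2 and 2 of 20 by limma. In the elongation zone, 31 of 43 raised genes were called lower (4.32% of all genes) and 15 of 21 lowered genes higher (9.68%), while limma called 6 of the 43 raised genes lower. In the differentiation zone, it was 31 of 43 (4.47%) and 12 of 22 (8.54%). The log2 fold changes of edgeR use its own normalization factors (TMM) and are not the TPM ratios of the rule. In the elongation zone they were -1.02 against a TPM ratio of -0.71 for SN2, and 0.92 against 1.21 for LOC544106. SN2 thus passed a fold of 2 there by edgeR but not by TPM. The difference between the dgt effect in the meristem and that in the other zones was called in 48 of 52 raised genes (8.92% of all genes were called in that direction) and 22 of 22 lowered genes (9.23%). The filter on low counts removed between 5 and 14 raised genes and between 1 and 3 lowered genes from these tests.

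The rule fixed only the mean of the elongation and differentiation zone ratios, so the difference between those zones was tested. The test was the interaction of genotype and zone over their 12 libraries. A dgt effect that differed between both zones was called at an adjusted p under 0.05 in 15 of 65 genes that could be tested (23.1%), against 7.89% of all 21270 genes (4.25% with the higher effect in the differentiation zone and 3.64% with the lower). It was called in 4 of 43 raised genes (9.30%) and in 11 of 22 lowered genes. The share of the raised genes was near that of all genes. A gene with a large effect in a single outer zone also meets the rule, so the share of the lowered genes is not unrelated to how they were chosen. Without WT elongation zone replicate 3, 9 genes were called in place of 15. Over the libraries left out singly, the lowered genes called with the lower effect in the differentiation zone numbered 3 to 7, against 7 with all libraries.

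Among raised genes, LOC112942251 had the largest such difference. Its dgt effect was higher in the differentiation zone than in the elongation zone by 5.93 on the log2 scale (SE 0.96, adjusted p = 0.0018). LOC101250910 was lower in dgt mostly in the elongation zone, at 8.15, 11.1 and 9.44 TPM in WT and 2.62, 3.69 and 4.44 in dgt, against 10.7, 14.9 and 18.1 in WT and 10.5, 10.6 and 11.3 in dgt in the differentiation zone, a difference of 1.27 (SE 0.23, adjusted p = 0.0040). In LOC100191111 the same difference was 1.06.

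In the lowered set the zones differed both ways. LOC101266123 had 3.6, 6.96 and 6.05 TPM in the WT elongation zone and 15.6, 24.1 and 20.8 in dgt, but 38.02, 40.2 and 45.3 in WT and 42.6, 33.6 and 42.3 in dgt in the differentiation zone, a difference of -1.67 (SE 0.24, adjusted p = 0.00075). Its libraries were apart in the elongation zone and overlapped in the differentiation zone, and its meristem libraries, 30.5, 3.16 and 19.6 in WT and 9.22, 10.9 and 6.62 in dgt, overlapped. LOC101256987 likewise differed mostly in the elongation zone (-2.90, SE 0.53, adjusted p = 0.0041). The opposite held for LOC101259599, with 72.2, 109 and 86.9 TPM in the WT elongation zone and 71.7, 55.4 and 97.5 in dgt, and 13.8, 58.9 and 42.1 in WT and 222, 148 and 210.2 in dgt in the differentiation zone (2.90, SE 0.48, adjusted p = 0.0022). Its meristem values were 2.56, 1.56 and 5.46 in WT and 1.16, 0.87 and 1.21 in dgt. LOC104649409, not matched in the gene table, had 3.03, 3.96 and 2.08 TPM in the WT elongation zone and 5.34, 6.23 and 4.82 in dgt, and 6.91, 5.22 and 4.48 in WT and 33.6, 37.5 and 46.8 in dgt in the differentiation zone (2.24, SE 0.41, adjusted p = 0.0041), after 0.98, 10.04 and 6.72 in WT and 0.65, 2.08 and 0.73 in dgt in the meristem.

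**Figure D5:**
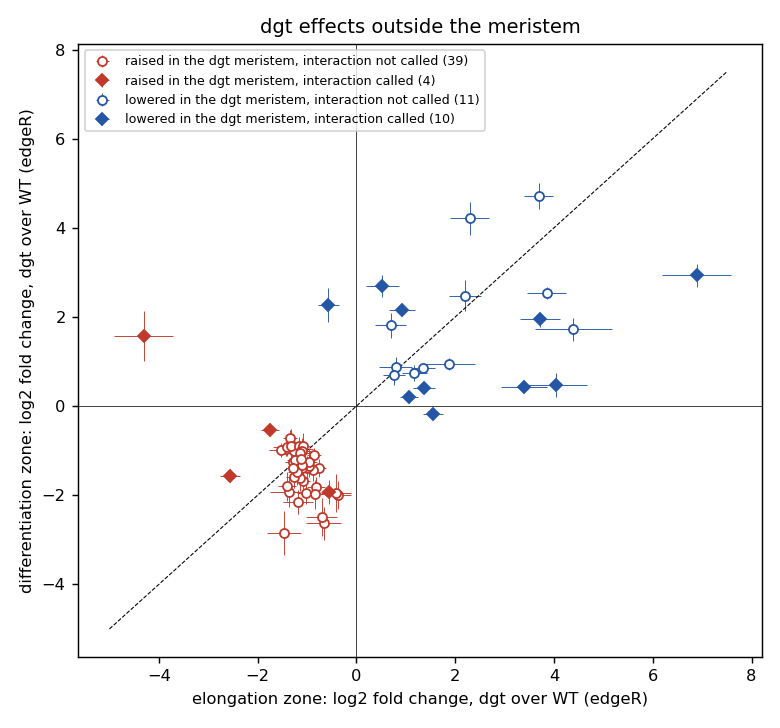
The dgt effect in the elongation zone (horizontal) and the differentiation zone (vertical) as log2 fold changes of dgt over WT from edgeR, with bars of 1 standard error, for the 64 genes that could be tested in both. Raised genes are red, lowered genes blue, filled diamonds mark the 14 genes called for a difference between the zones, and the dashed line marks equal effects. Except for LOC112942251, the raised genes lie below 0 on both axes, and the lowered genes scatter widely.

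Along the root within each genotype, a contrast that holds no dgt against WT ratio, the sets differed. In WT, 14 of 22 lowered genes were called higher in the differentiation zone than in the elongation zone (16.6% of all genes) and 2 lower (15.8%), with a median log2 fold change of 2.45. In dgt it was 16 higher (14.1%) and 1 lower (16.2%), with a median of 2.42. Of 43 raised genes, 3 were called higher and 11 lower in WT, or 32.6% against 32.4% of all genes, with a median log2 fold change of -0.42. The 11 became 17 without WT differentiation zone replicate 1 and 7 without replicate 2 or by limma. In dgt, 4 were called higher and 17 lower, or 48.8% against 30.3%, with a median of -0.73. All genes tested had medians of 0.021 in WT and 0.047 in dgt. These libraries also entered the rule, so the shares are a description.

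Few of these genes share an address. Of the 78 that matched the gene table, 5 pairs were direct neighbours, each pair with the same direction, and 11 pairs lay within 20 genes of each other. Beside the pairs named above, LOC101265690 and LOC101265187 adjoin on chromosome 2 and the snoRNAs LOC112941238 and LOC112941226 on chromosome 3. Chromosome 4 held 12 of the 80 genes, against 8.66% of all genes with a mean TPM of 1 or more. A single transcript was annotated for 75 of the 80 genes. Beside AGO4B, the leading transcript took from 39.7% to 44.5% over the groups in LOC544106, from 49.1% to 51.3% in LOC101255894 and from 14.4% to 19.1% in LOC101259599. In LOC101252232 it took 0% in the WT elongation zone, where the gene had 1 count, and from 55.3% to 76.8% in the other groups.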

How the data were processed

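Levels came from 18 RNA-seq libraries of dissected root zones, made with the TruSeq RNA kit v2 and read as 51-base single reads. The authors aligned the reads with RSEM to transcripts of the Heinz tomato genome and deposited, per gene, expected counts without normalization and TPM values scaled by length and library total. They also deposited the share of each transcript within its gene as a percentage (IsoPct). Their tables of EBSeq results per zone hold posterior probabilities, posterior fold changes and group means of dgt against WT, and were not used. Per the labels, CASAVA 1.8.2 came before RSEM. Multi-mapped reads are split by RSEM, and 73 of the 80 genes had counts that were not whole in at least 1 library, so near-identical copies may share reads.

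Members were found from TPM with a pseudocount of 1. Expected counts were rounded and tested with edgeR 4.0.16 (glmQLFit and glmQLFTest, TMM, filterByExpr with a minimum count of 10 and total of 15, prior count 0.125) in R 4.3.3, over all genes that passed, with Benjamini-Hochberg adjustment over all of them. Calls needed an adjusted p under 0.05 and, except for interactions, a fold over 2. DESeq2 1.42.0, limma 3.58.1 on log2(TPM + 1), no filter, a replicate block, other forms of the rule and leaving out each library were alternatives. Python 3.11.15, numpy 2.4.6, pandas 2.3.3 and matplotlib 3.10.9 did the rest. The tests were tried on simulated counts first. Pairing by replicate number was checked by correlating deviations from group means over genes. Of 15 pairs of groups, only WT elongation with WT differentiation had every same-numbered correlation over 0.1 (0.14 to 0.42). However, WT differentiation replicate 3 with WT elongation replicate 2 had 0.29, above the 0.16 and 0.14 of the same-numbered replicates 2 and 3. The correlations thus do not settle whether the numbers pair those libraries. A replicate block there gave 31 calls in place of 30.

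The members, the marker lists and the tests were chosen with earlier results of these data known. Genes named were the 12 with the highest score in each direction, those with a symbol and the 6 with the smallest interaction p, and others are said to be chosen after their values were seen. Of the 80 genes, 78 were found in RefSeq's table of genes on SLM_r2.1 (75 through an accession, 2 through a symbol, 1 through a synonym), used for names, class and gene order only. Promoter motifs and protein identity, planned as well, were not analysed here, since no sequence was at hand. The 3 replicates of a group were biological replicates, and the spread between them limits precision more than depth does for genes with many counts.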

Additional observations from a re-analysis of the deposited data

Results flagged for a closer look

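A difference of the dgt effect between the elongation and the differentiation zone was tested as an interaction of genotype and zone with edgeR. It was called in 15 of the 65 genes that could be tested, against 7.89% of all 21270 genes. The raised genes, with 4 of 43 (9.30%), were near that share. Of the lowered genes 11 of 22 were called, a share not unrelated to how they were chosen. The values are dgt effects in the differentiation zone minus those in the elongation zone, on the log2 scale. In the raised set the difference was 5.93 for LOC112942251, 1.27 for LOC101250910 and 1.06 for LOC100191111, so that their dgt effect was more negative in the elongation zone. The raised gene LOC101250552 was called in the other direction (-1.31) and lost the call in 8 of 16 alternatives.

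In the lowered set, the dgt effect was larger in the elongation zone for LOC101266123 (-1.67), LOC101256987 (-2.90), LOC101259182 (-3.51), LOC101268645 (-1.71), LOC101247459 (-0.80) and AGO4B (-0.89), and larger in the differentiation zone for LOC101259599 (2.90), LOC104649409 (2.24), LOC112940032 (2.04) and LOC544106 (1.29). For LOC101252232 the fit gave -3.93, but no direction is read from it: the value depends on the prior count, because its WT elongation zone libraries held 1 count between them, and on log2(TPM + 1) the dgt ratio was 1.93 in the elongation zone and 2.64 in the differentiation zone. Its call was lost in 5 of 16 alternatives and its sign reversed in 1. The call for AGO4B had an adjusted p of 0.049 by edgeR and was lost in 11 of 16 alternatives, that for LOC112940032 in 11, that for LOC101268645 in 9 and that for LOC101247459 in 5.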

How the results depend on the processing

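The membership depended most on the pseudocount of the rule: 26 of the 80 genes were still among the first 80 with a pseudocount of 0.1, and 48 with one of 5. By medians it was 55, by CPM 61, by TPM rescaled with TMM factors 59, by means of log2 values 70, and without single libraries 66 to 76. Of the 33 protein-coding raised genes with 20 TPM or more in the WT elongation zone, 5 stayed among the first 80 with a pseudocount of 0.1, 25 with one of 5 and by medians, 29 with TMM, 32 by CPM, 33 by means of log2 values and 28 to 33 without single libraries. A pseudocount cannot change the sign of a zone's ratio. Opposite signs were kept by 80 of 80 genes by CPM, TMM and means of log2 values, and by 78 by medians and without WT meristem replicate 2. The 33 genes kept them under each of these settings.

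Of the 43 raised and 21 lowered genes that could be tested in the elongation zone, limma called 23 and edgeR 46. Among all genes edgeR called 14.0% there, and the share for limma is not given here. limma ran on TPM without TMM factors. The zone difference was called in 15 genes, in 17 or 18 by the other tools and filters, and in 9 without WT elongation replicate 3 (9 to 16 over all libraries left out). For LOC101252232 limma gave the opposite sign, 0.73 (adjusted p = 0.245), where edgeR gave -3.93. The cause of these changes was not tested. Calls in either direction were also counted with each library left out. Brackets hold the calls with all libraries and the share of all genes then called. They ran from 27 to 56 in the meristem (39, 12.9%) and 40 to 47 in the elongation zone (46, 14.0%). In the differentiation zone they ran from 34 to 51 (43, 13.0%), and for the meristem against the other zones from 67 to 72 (70, 18.1%). The rule used these contrasts, so nothing is read from these counts. Along the root, calls ran from 26 to 36 in WT (30, 32.4%) and 33 to 41 in dgt (38, 30.3%). Of 768 scores recomputed for the 32 named genes, 23 moved by more than the spread between replicates. That spread was pooled over the 6 groups, including the WT meristem where the lowered genes varied most. The count thus says little on how stable the membership was.

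Of 45 same-numbered pairs of libraries, 10 had a correlation over 0.1 (range -0.26 to 0.42). A replicate block gave 35, 46 and 44 calls in the 3 zones, 69 for the meristem against the others, 18 for the zone difference, 31 along the WT root and 38 along the dgt root. The promoter window was not run, because it needs sequence. Depth limits the 13 of the 80 genes that never reached 50 expected counts.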
